A study of Mus musculus with 9 samples.

Results

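The S100 genes followed here were measured in mouse lung after exposure to the mould Aspergillus fumigatus. They were 10 genes: S100a8 and S100a9, whose proteins form calprotectin, and 8 more widely expressed relatives, S100a1, S100a4, S100a6, S100a10, S100a11, S100a13, S100a14 and S100a16. They were chosen by symbol from the 18984 genes listed in every library, all 10 were present, and all 10 passed the filter on low values that 13761 genes passed. C57BL/6 mice were given hyphal fragments (the filamentous growth form), conidia (the resting spores) or normal saline into the trachea. Whole lungs were collected 24 hours later. Each group had 3 libraries of poly(A) RNA, and all groups shared the strain, the tissue, the route and the time. The dose, the fungal strain and the age and sex of the mice were not given in the sources used here, and it is not stated if replicate libraries represent different mice. The p-values therefore measure the spread between these libraries, which may be technical.

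S100 proteins are small calcium sensors with paired EF-hand calcium-binding motifs that mostly work as dimers, changing shape with calcium and then binding a partner protein. S100A8 and S100A9 are among the most abundant proteins of the neutrophil cytosol and are also made by monocytes and by stimulated epithelium. Their heterodimer binds zinc and manganese and so withholds them from microbes, a mechanism known to restrict the growth of Aspergillus hyphae, and outside the cell it is a ligand of TLR4 and RAGE. The other members are cytosolic partners of annexins, of the cytoskeleton and of secreted growth factors in epithelial, endothelial, muscle and stromal cells.

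Values were FPKM, fragments scaled to transcript length and to the mapped fragments of the library, which can be compared between genes. Differences were computed on log2(FPKM + 1), which understates the change of low genes. Genes were tested with limma over all 9 libraries and were called at a Benjamini-Hochberg adjusted p under 0.05 over all genes tested. Summed FPKM was 492540 to 561250 per library, and the approximate depth, read from the spacing of low values on the assumption of fragments of 150 bases, was 21400000 to 22500000 fragments. The median FPKM of all genes was 3.6 to 4.05 in hyphae libraries, 5.21 to 6.05 in conidia libraries and 5.88 to 6.32 in saline libraries. The median difference over all tested genes was −0.37 for hyphae against saline, −0.07 for conidia against saline and −0.29 for hyphae against conidia. Each comparison was therefore also made after dividing every library by its median-of-ratios factor, which brings the median gene close to 0, and these rescaled results are given where the call changed. Both fungal groups were set against the same 3 saline libraries. In whole lung, a smaller number of cells of a type and less RNA per cell cannot be told apart.

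In the mouse genome most of these genes lie side by side. In the order of the RefSeq annotation of chromosome 3, S100a1, S100a13, S100a14, S100a16, S100a4, S100a6, S100a8 and S100a9 stood in a run of 12 S100 genes with 0 other coding genes between them. S100a7l2 followed the run after 1 coding gene, and S100a11 and S100a10 stood side by side beyond a further 54 coding genes. S100a8 and S100a9 were neighbours on opposite strands. The promoter windows of both genes are shown because they were the members with the widest change, each running from 250 bases before the annotated start to 50 bases after it, from RefSeq for GRCm38.p6, a build other than the mm9 of the deposited values. The S100a8 window is chr3:90668821-90669120 on the plus strand and the S100a9 window is chr3:90695672-90695971 on the minus strand, each printed 5′ to 3′ along its gene with motif matches in capitals.
S100a8: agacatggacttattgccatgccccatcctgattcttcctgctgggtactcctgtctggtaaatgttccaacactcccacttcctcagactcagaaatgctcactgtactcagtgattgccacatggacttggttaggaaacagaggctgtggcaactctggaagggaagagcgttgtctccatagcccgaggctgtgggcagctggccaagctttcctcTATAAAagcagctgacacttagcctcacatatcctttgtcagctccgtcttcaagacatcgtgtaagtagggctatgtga
S100a9: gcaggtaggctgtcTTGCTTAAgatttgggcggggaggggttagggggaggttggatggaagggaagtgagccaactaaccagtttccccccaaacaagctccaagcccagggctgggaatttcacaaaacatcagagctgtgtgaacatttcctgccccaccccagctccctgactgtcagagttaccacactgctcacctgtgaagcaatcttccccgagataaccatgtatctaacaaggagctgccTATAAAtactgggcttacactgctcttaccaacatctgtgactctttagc
The capitals in S100a8 are a TATA box (TATAAA) that begins 30 bases before the annotated start. In S100a9 the same letters begin at the annotated start itself, and a C/EBP motif (TTGCNNAA), the recognition letters of a family of transcription factors of myeloid cells, begins 236 bases before it.

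Windows were found for 8 of the 10 members, those without one being S100a10 and S100a14. S100a16 had 2 windows, and a member was counted if any of its windows matched. The shares given beside these counts are of single windows. Both strands were searched. The TATA box was present in 3 of the 8 members, S100a4 being the other, against 13.6% of all 32851 promoter windows of the same length. The C/EBP motif was present in 1 of 8, against 10.8% of all windows. An NF-kB motif was present in 6 of 8, against 50.8% of all windows. The S100a1 and S100a13 windows overlap on opposite strands and their NF-kB matches are the same sites, so these members are not independent counts. The CCAAT box (letters CCAAT) was found in 1 of 8, against 37.4% of windows. The AP-1 motif (letters TGANTCA) was found in 2 of 8, against 7.81% of windows, and that of S100a16 lay in only 1 of its 2 windows. The STAT motif (letters TTCNNNGAA) was found in 0 of 8, against 8.3% of windows. Matches that overlap on the 2 strands were counted as 1 promoter, and a match describes letters only.

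Both calprotectin genes were far higher in every fungal library than in any saline library. S100a8 (Entrez 20201), the smaller calprotectin subunit, was at 203.38, 558.20 and 1918.24 FPKM in hyphae replicates 1 to 3, at 1143.76, 270.81 and 861.64 in conidia replicates 1 to 3, and at 17.49, 31.70 and 42.12 in saline replicates 1 to 3. Every fungal library lay above every saline library, while the hyphae and conidia libraries were interspersed. The mean was 893.3 ± 905.2 FPKM after hyphae, 758.7 ± 445.5 after conidia and 30.4 ± 12.4 after saline (SD, n = 3 each). S100a9 (Entrez 20202), the subunit with the longer tail that carries much of the metal binding, was at 235.52, 685.54 and 2072.84 FPKM in hyphae libraries, 1499.54, 359.04 and 848.24 in conidia libraries and 17.79, 38.58 and 46.83 in saline libraries. Again the saline libraries stood below all others. Its mean was 998.0 ± 957.7 FPKM after hyphae, 902.3 ± 572.2 after conidia and 34.4 ± 15 after saline (SD, n = 3 each).

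**Figure D1:**
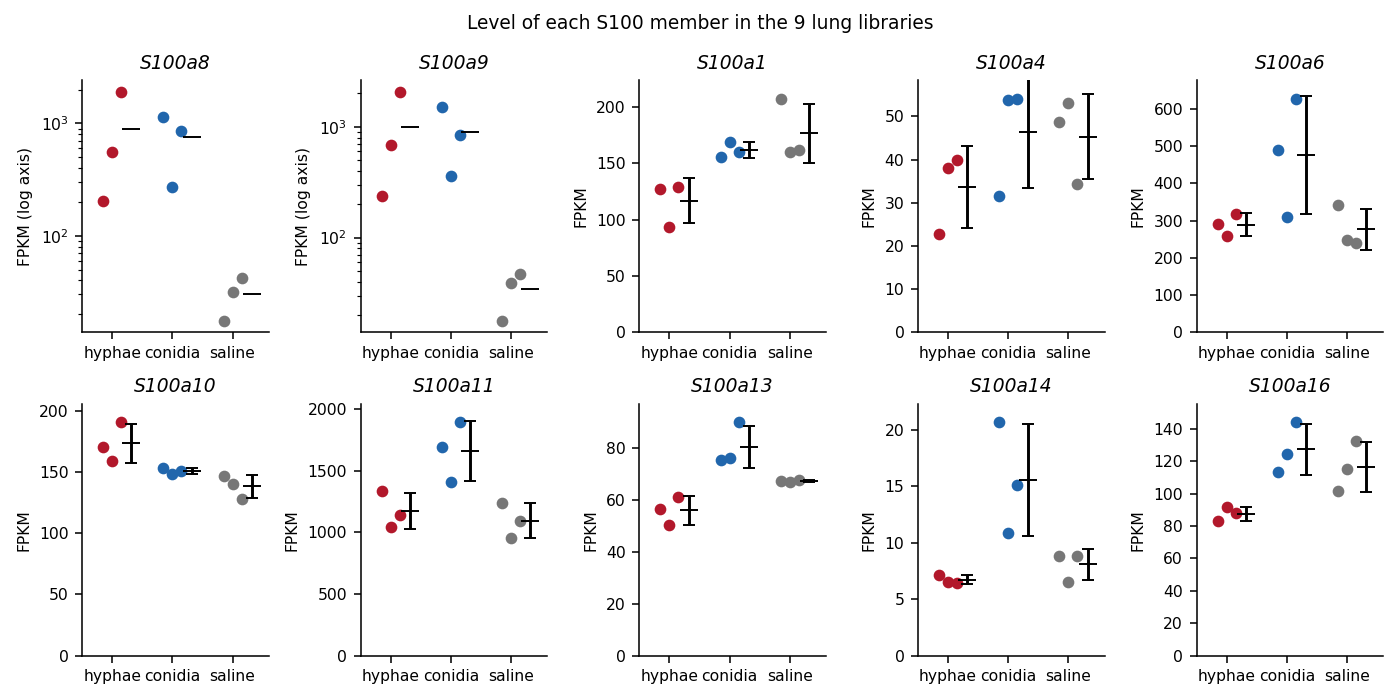
FPKM of each of the 10 S100 genes in each library (points), by group, with the group mean as a bar. The axis is logarithmic for S100a8 and S100a9. It is linear for the other members, where error bars give the SD. S100a8 and S100a9 lie above the saline libraries in all 6 fungal libraries and are spread over 203.38 to 1918.24 and 235.52 to 2072.84 FPKM after hyphae.

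The spread between libraries of the same group was wide. For S100a8 the highest library was 9.43 times the lowest after hyphae, 4.22 times after conidia and 2.41 times after saline. For S100a9 the ratios were 8.8 after hyphae, 4.18 after conidia and 2.63 after saline. Hyphae replicate 3 was the highest of all libraries for both genes, and hyphae replicate 1 and conidia replicate 2 were the lowest of the fungal ones.

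Against saline, both genes rose after hyphae. The log2 difference was 4.35 ± 0.80 (SE) for S100a8, with a 95% interval of 2.52 to 6.17 and a limma adjusted p of 0.00155. For S100a9 it was 4.40 ± 0.79 (SE), with an interval of 2.62 to 6.19 and a limma adjusted p of 0.00129. Among the 13761 tested genes ordered by this difference, S100a9 stood at position 14 and S100a8 at position 17. Both calls held in all 15 alternative settings. In this comparison 64.9% of all tested genes were called, 14.9% as higher.

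After conidia the log2 differences again exceeded 4, and the tests lay at the threshold. S100a9 rose by 4.55 ± 0.79 (SE) on the log2 scale (interval 2.77 to 6.34, limma adjusted p = 0.047), in 3 of 3 libraries. For S100a8 the difference was 4.44 ± 0.80 (SE, interval 2.62 to 6.27), and its limma adjusted p of 0.0525 missed the threshold. The genes stood at positions 9 and 11 of all tested genes by size of difference. The S100a9 call was lost when values were rescaled (adjusted p = 0.0612), and when conidia replicate 1 (0.173), conidia replicate 3 (0.217), hyphae replicate 2 (0.0983) or saline replicate 1 (0.172), 2 (0.168) or 3 (0.108) was left out. Without conidia replicate 2, S100a8 was called at an adjusted p of 0.0133 with a log2 difference of 5.07. Leaving out hyphae replicate 1 or 3 also brought S100a8 past the threshold, at adjusted p-values of 0.0314 and 0.0301. In this comparison 0.69% of all tested genes were called, 95 genes in all, so that few genes of any kind passed.

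Between the fungal forms the calprotectin genes did not differ detectably. The hyphae-against-conidia difference was −0.10 for S100a8, with an interval of −1.92 to 1.73 and a limma adjusted p of 0.93. For S100a9 it was −0.15, with an interval of −1.93 to 1.64 and an adjusted p of 0.889. These intervals include changes of more than 1 log2 unit in either direction, so the libraries do not show that both fungal forms raised the genes equally. After rescaling the differences were 0.24 and 0.18, with the sign turned.

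The subunits moved together in every library. The ratio of S100a8 to S100a9 FPKM was 0.864, 0.814 and 0.925 in hyphae libraries, 0.763, 0.754 and 1.02 in conidia libraries and 0.983, 0.822 and 0.899 in saline libraries. Its mean was 0.868 ± 0.0556 after hyphae, 0.846 ± 0.151 after conidia and 0.901 ± 0.0805 after saline (SD, n = 3 each), so the groups overlapped while the summed level differed by more than an order of magnitude. Across the 9 libraries log2 levels of S100a8 and S100a9 had a Pearson r of 1.0, a description over 3 groups that differ in level.

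The calprotectin genes took up a larger part of S100 transcript in every fungal library than in any saline library. Their summed level was 438.9, 1243.7 and 3991.1 FPKM after hyphae, 2643.3, 629.9 and 1709.9 after conidia and 35.3, 70.3 and 88.9 after saline. The summed level of the 8 other members was 2088.1, 1738.2 and 1973.2 FPKM after hyphae, 2727.3, 2299.1 and 3131.6 after conidia and 2157.2, 1746.7 and 1861.9 after saline. Calprotectin thus made up 17.4, 41.7 and 66.9% of the FPKM of the 10 members after hyphae, 49.2, 21.5 and 35.3% after conidia and 1.61, 3.87 and 4.56% after saline. Of all summed FPKM it was 0.0884 to 0.774% after hyphae, 0.125 to 0.52% after conidia and 0.00629 to 0.0171% after saline.

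**Figure D2:**
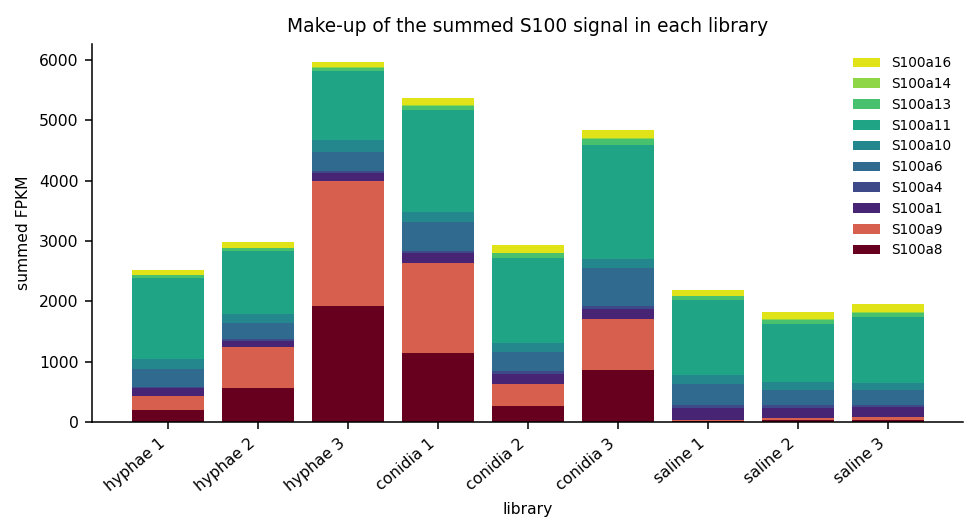
Summed FPKM per library of the 2 calprotectin genes and of the 8 other S100 members, by group. The calprotectin sum runs from 438.9 to 3991.1 after hyphae, 629.9 to 2643.3 after conidia and 35.3 to 88.9 after saline, while the other 8 members stay between 1738.2 and 3131.6 in all 9 libraries.

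In the order of levels within saline lungs, S100a11 was the highest member at 1093.5 ± 140.3 FPKM, followed by S100a6 at 276.4 ± 55.8, S100a1 at 176.8 ± 26.5, S100a10 at 138.3 ± 9.61, S100a16 at 116.3 ± 15.4 and S100a13 at 67.2 ± 0.538 (SD, n = 3 each). S100a4, S100a9, S100a8 and S100a14 followed at 45.3 ± 9.83, 34.4 ± 15, 30.4 ± 12.4 and 8.06 ± 1.36 FPKM. The library ranges of S100a10 and S100a16 overlapped, as did those of S100a4, S100a9 and S100a8. After hyphae the calprotectin genes stood beside S100a11 (1170.2 ± 147.3 FPKM), and after conidia S100a11 was at 1661.5 ± 243.7 FPKM (SD, n = 3 each). In hyphae replicate 3 and in no other library both calprotectin genes exceeded S100a11.

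Of the 8 other members, 1 rose and 3 fell after hyphae, 0 were called after conidia, and 6 were lower after hyphae than after conidia. In the hyphae-against-saline comparison 50% of all tested genes were called lower. In the hyphae-against-conidia comparison 55.2% of all tested genes were called, 12.7% higher and 42.5% lower. For conidia against saline 0.596% of all tested genes were called higher and 0.0945% lower. After rescaling, 2 of these 8 members were higher and 0 lower for hyphae against saline. With S100a8 and S100a9 it was 4 of the 10 members higher and 0 lower. In this rescaled comparison 59.3% of all genes were called, 30% higher and 29.3% lower. For hyphae against conidia 1 member was higher and 1 lower after rescaling, where 50.8% of all genes were called, 25.4% in each direction. For conidia 0 of 10 members were called after rescaling, where 0.342% of all genes were called, 0.298% higher and 0.0436% lower. After conidia, as deposited, limma gave an unadjusted p under 0.05 for 2909 of all tested genes, and 6 of the 10 members had every conidia library above every saline library. Over all tested genes 12% had conidia libraries wholly above and 17.8% wholly below the saline ones. The hyphae libraries lay wholly above the saline ones for 3 members and wholly below for 3, beside 17.3% and 53.4% of all genes, and wholly above the conidia ones for 1 and wholly below for 5, beside 14.8% and 45.1%. On the rescaled values they lay wholly above the saline ones for 6 members and wholly below for 0. Against conidia these rescaled counts were 1 and 1. The matching shares of all genes were not computed for rescaled values. The median difference of all 10 members was −0.07 for hyphae against saline, 0.43 for conidia against saline and −0.49 for hyphae against conidia, beside −0.37, −0.07 and −0.29 for all genes.

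**Figure D3:**
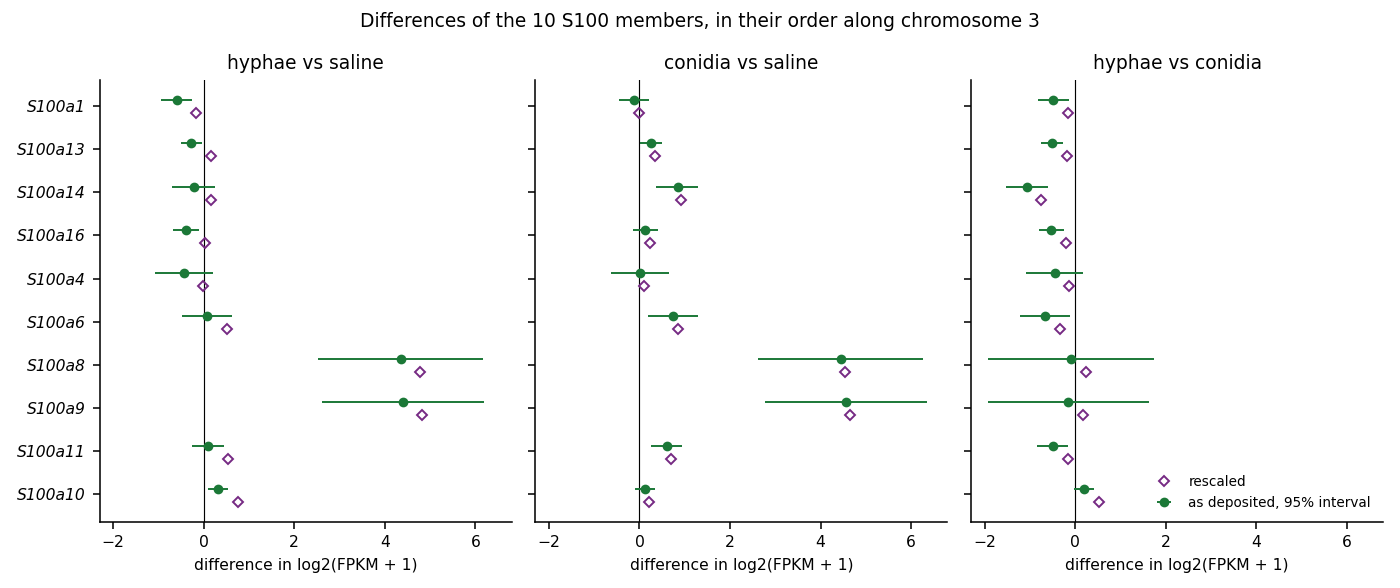
Log2(FPKM + 1) differences of the 10 S100 genes, for hyphae against saline, conidia against saline and hyphae against conidia. Filled circles are deposited values with 95% intervals and open diamonds are rescaled values. S100a8 and S100a9 stand above 4 in both comparisons with saline. As deposited, the point estimates of the other 8 members lie between −1.06 and 0.84 in all 3 comparisons. After rescaling they reach 0.92, for S100a14 in conidia against saline.

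S100a10 (Entrez 20194), which binds annexin A2 at the inner face of the plasma membrane, was at 170.34, 159.33 and 190.78 FPKM after hyphae, 153.83, 148.44 and 150.67 after conidia and 146.70, 140.50 and 127.85 after saline. The 3 groups did not overlap. S100a10 rose after hyphae by 0.32 ± 0.10 (SE) on the log2 scale (limma adjusted p = 0.0169), a call lost without hyphae replicate 3 (0.0578) or saline replicate 3 (0.0673), and by 0.75 after rescaling (adjusted p = 0.000489). The difference after conidia was 0.13 (interval −0.09 to 0.35, adjusted p = 0.462). Against conidia the hyphae difference was 0.20 (adjusted p = 0.118) as deposited and 0.53 (0.00382) after rescaling.

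S100a11 (Entrez 20195), a partner of annexin A1, was at 1330.32, 1040.48 and 1139.67 FPKM after hyphae, 1688.37, 1405.47 and 1890.59 after conidia and 1236.03, 955.58 and 1088.87 after saline. All conidia libraries stood above all others. The conidia difference from saline was 0.60 ± 0.15 (SE, interval 0.26 to 0.94), with a limma adjusted p of 0.0933 that missed the threshold and fell to 0.0227 without conidia replicate 2. S100a11 was lower after hyphae than after conidia by a log2 difference of −0.50 (adjusted p = 0.0205), a call lost after rescaling (−0.17, 0.38) and without hyphae replicate 2 (0.0771), hyphae replicate 3 (0.0556) or conidia replicate 3 (0.0776). Against saline the hyphae difference was 0.10 (adjusted p = 0.589) as deposited and 0.53 (0.0153) rescaled. An annotated pseudogene of S100a11 could share reads with it.

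S100a6 (calcyclin, Entrez 20200), a partner of calcyclin-binding protein, was at 290.02, 257.86 and 318.58 FPKM after hyphae, 489.31, 310.28 and 626.60 after conidia and 340.61, 248.89 and 239.56 after saline. Conidia replicates 1 and 3 lay above all other libraries, and conidia replicate 2 lay within the range of the hyphae and saline libraries. The conidia-against-saline difference was 0.74 ± 0.25 (SE, interval 0.18 to 1.30, limma adjusted p = 0.149), and without conidia replicate 2 it was called (0.0145). The hyphae-against-conidia difference of −0.66 was called at an adjusted p of 0.0452 although the groups overlapped. The call was lost after rescaling (−0.33, 0.318) and without any 1 of hyphae replicates 1 (0.0793), 2 (0.133) and 3 (0.0642), conidia replicates 1 (0.108) and 3 (0.152), and saline replicates 2 (0.0599) and 3 (0.0566).

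S100a14 (Entrez 66166), an epithelial member, was the lowest of the 10. It was at 7.17, 6.53 and 6.46 FPKM after hyphae, 20.64, 10.84 and 15.13 after conidia and 8.85, 6.49 and 8.84 after saline. The conidia libraries stood above all others, while hyphae and saline libraries overlapped. S100a14 was lower after hyphae than after conidia by a log2 difference of −1.06 ± 0.21 (SE, limma adjusted p = 0.00251), and this call held in all 15 alternatives, at −0.76 after rescaling (0.0237). Against saline the conidia difference was 0.84 ± 0.21 (SE, adjusted p = 0.0887), called without conidia replicate 2 (0.00949), and the hyphae difference was −0.22 (interval −0.69 to 0.24, adjusted p = 0.368).

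S100a16 (Entrez 67860), another epithelial and stromal member, was at 83.31, 91.83 and 87.80 FPKM after hyphae, 113.25, 124.74 and 144.12 after conidia and 101.64, 114.99 and 132.39 after saline. All hyphae libraries were the lowest. It fell after hyphae by 0.40 on the log2 scale against saline (limma adjusted p = 0.0206), a call lost without hyphae replicate 1 (0.055) or saline replicates 2 (0.0505) or 3 (0.0784). Against conidia the difference was −0.53 (adjusted p = 0.00691). Neither call held after rescaling, where the differences were 0.03 (0.868) and −0.20 (0.261).

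S100a13 (Entrez 20196), which takes part in the non-classical release of FGF1 and IL-1 alpha, was at 56.42, 50.13 and 61.11 FPKM after hyphae, 75.21, 76.19 and 89.80 after conidia and 67.29, 66.66 and 67.73 after saline. As deposited, the hyphae, saline and conidia libraries formed 3 groups without overlap, in that order of level. On the rescaled values every hyphae library lay above every saline library, and the hyphae and conidia libraries overlapped. The hyphae difference was −0.52 against conidia (limma adjusted p = 0.00303) and −0.27 against saline (0.0478). After rescaling they were −0.19 (0.176) and 0.16 (0.236), and the call against saline was also lost without any 1 of hyphae replicates 1 (0.0737) and 2 (0.169), conidia replicates 1 (0.0511) and 2 (0.0555), and saline replicates 1 (0.095), 2 (0.0967) and 3 (0.106).

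S100a1 (Entrez 20193), known best as the S100 protein of heart and skeletal muscle, was at 127.67, 93.85 and 128.90 FPKM after hyphae, 155.28, 169.45 and 160.59 after conidia and 207.33, 160.56 and 162.36 after saline. As deposited, the hyphae libraries were the lowest and did not overlap the others. The hyphae difference was −0.60 ± 0.15 (SE) against saline (limma adjusted p = 0.00675) and −0.48 against conidia (0.0227). After rescaling they were −0.17 (0.295) and −0.15 (0.372), and the call against conidia was lost without hyphae replicate 2 (0.0767), conidia replicate 2 (0.0612) or conidia replicate 3 (0.0569). Cardiac muscle markers, 12 genes in the list, summed to 271.9, 127.1 and 2517.3 FPKM after hyphae, 311.6, 402.5 and 491.0 after conidia and 1767.7, 517.9 and 599.9 after saline. S100a1 was highest in saline replicate 1, where these markers were also high. In hyphae replicate 3, where the markers were highest, S100a1 was at 128.90 FPKM. As deposited, this was close to the 127.67 FPKM of hyphae replicate 1 and below every conidia library. After rescaling, S100a1 was at 156.3 in hyphae replicate 3, 141.9 in hyphae replicate 1 and 156.0, 149.8 and 150.1 in conidia libraries. The part of heart muscle in the S100a1 result was not tested. The RefSeq spans of S100a1 and S100a13 overlap at their 5′ ends on opposite strands, although the starts used for the promoter windows lie apart and point away from each other. The sources used here do not state a strand-keeping kit, so any reads from the overlap cannot be told apart.

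S100a4 (metastasin, Entrez 20198), which binds non-muscle myosin heavy chain and marks fibroblasts and some macrophages, was at 22.80, 38.17 and 39.93 FPKM after hyphae, 31.46, 53.71 and 54.07 after conidia and 48.71, 53.05 and 34.28 after saline. The 3 groups overlapped. Its differences were −0.44 for hyphae against saline (interval −1.07 to 0.20, limma adjusted p = 0.197), 0.02 for conidia against saline (−0.62 to 0.65, 0.98) and −0.45 for hyphae against conidia (−1.09 to 0.18, 0.197).

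The remaining S100-named genes were 7, of which 3 passed the filter. S100g, the vitamin D dependent calcium-binding protein calbindin-D9k, was at 88.19, 73.89 and 58.93 FPKM after hyphae, 37.82, 86.34 and 30.60 after conidia and 71.21, 87.62 and 80.60 after saline, and was not called as deposited. After rescaling it was higher after hyphae than after conidia, by 0.96 on the log2 scale (limma adjusted p = 0.0301). The rescaled groups overlapped, with conidia replicate 2 at 76.3 and hyphae replicate 3 at 71.4. S100pbp, a nuclear binding partner of S100P in human cells, fell after hyphae by 1.11 on the log2 scale against saline (limma adjusted p = 8.84e-05), and by 0.74 after rescaling. S100b, the S100 protein of glia and some immune cells, was near 1 FPKM after hyphae and differed by −0.78 (adjusted p = 0.0218), a call lost after rescaling (0.0751) and without hyphae replicate 2 (0.0832) or saline replicate 1 (0.0567).

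Receptors and binding partners of S100 proteins were counted against all genes. Of 24 listed genes, 4 rose and 7 fell after hyphae and 0 were called after conidia as deposited and after rescaling, while 14.9% of all tested genes rose and 50% fell after hyphae. After rescaling, 11 were higher and 3 lower for hyphae, beside 30% higher and 29.3% lower of all genes. Tlr4 and Ly96, which form the receptor complex for calprotectin and endotoxin, were lower after hyphae. Tlr4 was at 1.55, 1.44 and 1.55 FPKM after hyphae, 6.28, 4.53 and 4.55 after conidia and 3.56, 3.43 and 3.73 after saline. Its difference from saline was −0.86 (limma adjusted p = 0.000473) and that from conidia −1.27. For Ly96 the differences were −0.81 (0.000668) and −1.24, and the calls of both genes held after rescaling.

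Cd14, the co-receptor of TLR4, was at 56.21, 107.89 and 162.87 FPKM after hyphae, 391.58, 68.59 and 161.07 after conidia and 35.86, 22.30 and 31.00 after saline. It rose after hyphae by 1.74 (limma adjusted p = 0.028), a call lost without hyphae replicates 2 (0.0732) or 3 (0.0921) or saline replicates 2 (0.0847) or 3 (0.0586), and its difference after conidia was 2.44 (0.0865). Ager, which encodes RAGE and is abundant in alveolar type 1 cells, was at 1480.44 to 1722.21 FPKM after hyphae, 1543.34 to 1605.72 after conidia and 975.49 to 1535.48 after saline, with a hyphae difference of 0.28 (0.182) as deposited and 0.71 (0.00861) rescaled.

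Among the annexins and the cytoskeletal partners, Anxa1, the partner of S100a11, was at 395.33, 416.60 and 506.48 FPKM after hyphae, 260.52, 224.78 and 233.40 after conidia and 227.09, 161.75 and 192.24 after saline. The hyphae libraries were all above the others. Anxa1 rose after hyphae by 1.18 (limma adjusted p = 0.000201) against saline and by 0.87 (0.00126) against conidia. Anxa2, the partner of S100a10, had a hyphae difference of 0.15 (0.23) as deposited and 0.58 (0.000869) rescaled. Mcam, an adhesion receptor of endothelium reported to bind S100A8/A9, rose after hyphae by 0.86 (0.00103). Myh9, the S100a4 target, rose by 0.57 (0.0309), a call lost without hyphae replicate 1 (0.0553), hyphae replicate 2 (0.0965) or saline replicate 1 (0.103). Cacybp, the S100a6 partner, fell by 0.41 (0.00869), with a rescaled difference of 0.00 (0.99).

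Cytokines and transcription factors known to switch on the calprotectin genes were mostly higher after hyphae. Of 22 listed genes 18 were tested, and 13 of these rose and 0 fell against saline, while 14.9% of all tested genes rose and 50% fell, with a median difference of 1.81 beside −0.37 for all genes. After conidia 1 rose, beside 0.596% of all genes, and the median was 0.80 beside −0.07. Csf3, the granulocyte growth factor, was at 14.63, 44.78 and 80.42 FPKM after hyphae, 34.95, 1.87 and 6.24 after conidia and 0.10, 0.12 and 0.08 after saline, a hyphae difference of 5.14 (limma adjusted p = 0.000947). Il6 rose after hyphae by 4.26 (0.000764). Both were highest in hyphae replicate 3.

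Tnf, an inflammatory cytokine, was at 11.37, 33.33 and 38.36 FPKM after hyphae, 47.48, 7.84 and 26.08 after conidia and 0.57, 0.49 and 0.64 after saline. It rose by 4.03 (limma adjusted p = 0.000543) after hyphae and by 3.85 (0.0416) after conidia. The conidia call was lost after rescaling (0.0569) and without hyphae replicate 2 (0.0912), conidia replicate 1 (0.137) or 3 (0.2), or saline replicate 1 (0.148), 2 (0.16) or 3 (0.108). Il1b rose after hyphae by 2.87 (0.018), a call lost without hyphae replicate 2 (0.0575) or 3 (0.0564) or saline replicate 3 (0.0538), and differed by 3.63 after conidia (0.0865). Cebpd and Cebpb, C/EBP factors of the acute phase, rose after hyphae by 2.42 (8.94e-05) and 1.63 (0.00127).

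Between the fungal forms, 8 of the 18 were higher after hyphae and 0 lower, beside 12.7% of all genes called higher. With 1 library left out, the calls of Il6, Cebpb and Relb were each lost in 7 of 9 fits and that of Hif1a in 4. The hyphae and conidia libraries of these genes overlapped. The calls of Klf4, Jun, Cebpd and Fos held in all 9 fits. Klf4, a factor of monocyte and endothelial differentiation, was at 254.91, 236.57 and 188.06 FPKM after hyphae, 69.38, 61.78 and 73.22 after conidia and 62.44, 64.82 and 60.05 after saline. Its hyphae-against-conidia difference was 1.71 (limma adjusted p = 3.98e-05). Jun and Cebpd were also higher after hyphae than after conidia, by 1.54 (0.000467) and 1.27 (0.00248). Il17a, Il22, Ifng and Cebpe were under the filter.

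Other neutrophil genes were set beside the calprotectin genes. Of 24 listed markers 20 were tested. After hyphae 11 rose and 1 fell, after conidia 3 rose, and between the forms 2 were higher and 5 lower after hyphae. Of all tested genes, 14.9% rose and 50% fell after hyphae, 0.596% rose after conidia, and between the forms 12.7% were higher and 42.5% lower after hyphae. The median differences were 1.22, 2.06 and −0.13, beside −0.37, −0.07 and −0.29 for all genes. Of the primary granule genes of immature neutrophils, Mpo, Elane and Ctsg were at or under 0.25 FPKM in every library. Prtn3, another such gene, was at 0.50, 0.22 and 0.74 FPKM after hyphae, 0.70, 0.83 and 2.06 after conidia and 1.28, 0.34 and 0.55 after saline, and did not pass the filter.

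Retnlg, a secreted product of mature neutrophils, was at 127.79, 350.18 and 850.24 FPKM after hyphae, 202.36, 60.42 and 243.25 after conidia and 7.63, 12.25 and 15.41 after saline. Its order of hyphae libraries was that of S100a8 and S100a9, and it rose after hyphae by 4.77 (limma adjusted p = 0.000494). Ngp, a secondary granule protein, was at 40.78, 180.97 and 638.90 FPKM after hyphae, 45.11, 4.72 and 42.81 after conidia and 1.12, 1.17 and 1.84 after saline, a hyphae difference of 6.17 (0.000892). Camp, the cathelicidin of the same granules, was at 7.39, 35.32 and 205.71 FPKM after hyphae, 1.44, 1.83 and 2.40 after conidia and 0.68, 0.75 and 1.29 after saline. Ltf, the lactoferrin of these granules, went another way. It was at 15.30, 23.04 and 100.87 FPKM after hyphae, 38.28, 41.87 and 44.25 after conidia and 63.73, 19.54 and 19.84 after saline, and its groups overlapped. Camp and Ngp were higher after hyphae than after conidia by 3.8 (0.00756) and 2.91 (0.0384), the Ngp call being lost without hyphae replicate 2 (0.0931) or 3 (0.121), conidia replicate 2 (0.134) or saline replicate 1 (0.0549), 2 (0.0549) or 3 (0.0543).

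Csf3r, the receptor of the granulocyte growth factor, had another order. It was at 12.03, 25.89 and 44.06 FPKM after hyphae, 103.20, 88.55 and 107.67 after conidia and 17.31, 24.47 and 17.54 after saline. Its difference was 2.29 for conidia against saline (limma adjusted p = 0.0465), 0.29 for hyphae against saline (0.518) and −2.0 for hyphae against conidia (0.00224). Mmp8 and Clec4d, a collagenase and a lectin of neutrophils, were the other markers that rose after conidia, by 3.17 (0.047) and 3.84 (0.047). None of these 3 conidia calls held after rescaling (0.0584, 0.0594 and 0.0612), and all 3 were lost without hyphae replicate 2, conidia replicate 1 or 3, or any saline replicate, with adjusted p-values of up to 0.217. Fpr1, Cd177 and Fpr2, surface proteins of neutrophils, were lower after hyphae than after conidia by differences of −2.07 (0.0219), −1.70 (0.018) and −1.62 (0.0154), none of which held after rescaling (0.0561, 0.0509 and 0.0549). Without 1 hyphae library the Fpr1 call was lost for replicates 1 (0.0561) and 2 (0.0508) and that of Cd177 for replicates 1 (0.0557) and 2 (0.066), and the Fpr1 call was also lost without conidia replicate 1 (0.0658).

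**Figure D4:**
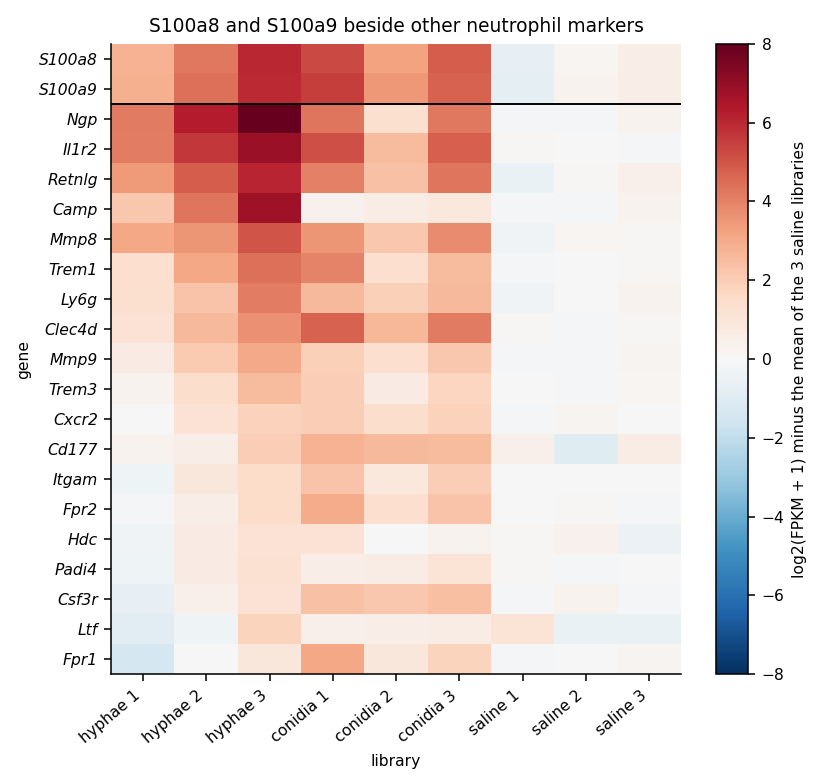
Levels of S100a8, S100a9 and tested neutrophil markers (all but 1) in the 9 libraries, as the log2(FPKM + 1) value minus the mean of the 3 saline libraries. Ngp and Camp are highest in hyphae replicate 3, and Csf3r is highest in the 3 conidia libraries.

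The calprotectin sum stood in higher proportion to the summed neutrophil markers in every fungal library than in any saline library. The summed FPKM of the 24 markers was 332.4, 909.9 and 2465.5 after hyphae, 919.8, 419.0 and 825.6 after conidia and 185.8, 164.8 and 143.0 after saline. The calprotectin sum was 1.32, 1.37 and 1.62 times that of the markers after hyphae, 2.87, 1.5 and 2.07 times after conidia and 0.19, 0.426 and 0.622 times after saline. The hyphae and conidia ranges overlapped. This proportion depends on the markers summed. Hdc and Ltf, whose groups overlapped, were at 42.86, 50.26 and 28.36 and at 63.73, 19.54 and 19.84 FPKM after saline. The mean of Retnlg alone was 37.6 times that of saline after hyphae and 14.3 times after conidia. For S100a8 these ratios of means were 29.3 and 24.9, and for S100a9 they were 29.0 and 26.2. The part of neutrophil number in the calprotectin levels was not tested.

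Markers of other lung cells were counted in the same way. Of 15 monocyte and recruited macrophage markers, 1 rose and 6 fell after hyphae and 1, F10, rose after conidia. Of 11 ciliated cell markers 11 fell after hyphae and 0 were called after conidia, and of 10 club cell markers 8 fell after hyphae and 1, Cbr2, fell after conidia. Of 10 alveolar type 1 markers 1 rose and 3 fell after hyphae. Beside these counts, 14.9% of all tested genes rose and 50% fell after hyphae. The conidia differences were 2.01 for F10 (limma adjusted p = 0.047) and −1.41 for Cbr2 (0.047). The F10 call was lost after rescaling (0.0667), where that of Cbr2 held (0.0453). Both were lost without hyphae replicate 2 or 3, conidia replicate 1 or 3, or any saline replicate, with adjusted p-values of up to 0.222 for F10 and 0.22 for Cbr2. After rescaling, hyphae counts were 5 higher and 4 lower for monocyte markers, 0 and 9 for ciliated, 0 and 4 for club and 5 and 2 for alveolar type 1 markers, beside 30% of all genes higher and 29.3% lower. The part of these cells in the levels of the 8 widely expressed members was not tested.

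The tested genes most like S100a8 over the 9 libraries, by Pearson r of log2 values, were Alox5ap at 0.980, Ly6g at 0.977, Susd6 at 0.977, Ccl3 at 0.976, Ifitm2 at 0.973, Tnf at 0.972, Mmp8 at 0.972 and Grina at 0.971. For S100a9 they were Susd6, Ccl3, Alox5ap, Tnf, Ifitm2, Ly6g, Cxcl3 and Lilrb4a, from 0.978 to 0.967, with 6 genes on both lists. Ly6g, the surface marker used to identify mouse neutrophils, was at 1.97, 5.02 and 20.03 FPKM after hyphae, 6.39, 3.53 and 6.51 after conidia and 0.00, 0.24 and 0.49 after saline. Its low values are the least precise at this depth. Among the members themselves, S100a6 and S100a11 had an r of 0.92, S100a11 and S100a14 0.87, and S100a13 and S100a16 0.84. All these correlations are descriptions over libraries that share group, depth and the shift of the median gene.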

How the data were processed

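Lung poly(A) RNA of 9 libraries was sequenced on a BGISEQ instrument, per the labels' protocols. The deposited values were FPKM computed by the authors, per the file headers, in 1 file per library. Per the submitters' processing notes, HISAT and Bowtie2 were used with mm9, without roles or versions. Which tool made the FPKM is not stated. No counts were at hand, so depth was only approximated and no counting intervals were given.

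Values were transformed to log2(FPKM + 1), and the 13761 genes that reached 1 FPKM in 3 or more of the 9 libraries were fitted in 1 limma-trend model (limma 3.58.1, R 4.3.3) with robust moderation, a term per group and no covariate. Tests were two-sided, with Benjamini-Hochberg adjustment over all genes. An exact test of 3 against 3 cannot give a p below 0.1. 0 pairs of libraries held identical values.

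The members and gene lists were chosen with earlier results of these data known. All members were named. From a list, up to 6 called genes with the largest difference per comparison and up to 3 uncalled genes with the highest level were eligible, and any gene of the lists of partners, of inducers and of other S100 genes. The 8 genes most like each calprotectin gene were also named. Alternatives were a pseudocount of 0.1, no filter, median-of-ratios rescaling, a replicate block, only the 2 groups compared, no robust option and leaving out each library. Promoter windows came from RefSeq for GRCm38.p6. Protein sequences were not used here. Of the listed neutrophil markers, 1 is counted but not reported by name here.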

Additional observations from a re-analysis of the deposited data

How the results depend on the processing

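The S100a8 and S100a9 calls for hyphae against saline held in all 15 alternatives, with log2 differences of 3.51 to 5.13 and 3.62 to 5.18 when 1 library was left out. The count of members called for hyphae against saline was 3 to 6 of 10 with 1 library left out, beside 7679 to 9033 of the 13761 tested genes. For hyphae against conidia it was 3 to 6, beside 5958 to 7922 of all tested genes. After rescaling it was 2 for hyphae against conidia, where 50.8% of all genes were called.

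Conidia against saline was the least stable comparison. The count of members called, 1 of 10, was 2 with a pseudocount of 0.1, with only the 2 groups compared and without the robust option, 0 without the filter, after rescaling and under the replicate block, and 0 to 5 with 1 library left out. Of all genes, 95 were called, against 43 without the filter, 47 after rescaling, 57 under the block and 0 to 1535 with 1 library left out. Limma called 0 genes without saline replicate 1, 2 or 3 or conidia replicate 3, with 2005, 2001, 2631 and 1878 genes at an unadjusted p under 0.05. Leaving out conidia replicate 1 gave 1 call and leaving out conidia replicate 2 gave 1535, while leaving out hyphae replicate 1 or 2 gave 233 or 7. S100a8 passed with a pseudocount of 0.1 (4.49, adjusted p = 0.0498), with only the 2 groups (4.44, 0.0417) and without the robust option (4.44, 0.0491), and ranged over 4.03 to 5.07 with 1 library left out. S100a9 did not pass without the filter (4.55, 0.0691), after rescaling (4.64, 0.0612) or under the replicate block (4.55, 0.0798), and ranged over 4.07 to 5.10.

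For hyphae against conidia the uncalled differences of S100a8 and S100a9 turned sign. S100a8 was at 0.24 and S100a9 at 0.18 after rescaling, and they ranged over −0.93 to 0.68 and −0.94 to 0.63 with 1 library left out. The cause was not tested.

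Of 360 alternative values of the other 8 members, 313 kept direction and call, 34 lost the call, 5 gained it and 8 turned sign. Those that turned were, for conidia against saline, S100a1 without saline replicate 1 (0.00, range −0.18 to 0.00) and S100a4 without conidia replicate 2 (−0.11), conidia replicate 3 (−0.11) or saline replicate 3 (−0.17, range −0.17 to 0.27). For hyphae against saline they were S100a6 without saline replicate 3 (−0.02) and, after rescaling, S100a13 (0.16), S100a14 (0.16) and S100a16 (0.03). Where 1 library of a group of 3 was left out, fewer libraries carried the test.

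Same-numbered libraries did not deviate together consistently, the largest correlation being 0.425 for hyphae and saline replicate 2. Correlations of their deviations from the group means were −0.197, 0.0984 and −0.00625 for conidia and saline, 0.0907, 0.425 and −0.139 for hyphae and saline, and −0.312, −0.0983 and 0.175 for hyphae and conidia, so the numbers were not taken as pairs.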
